A study of Mus musculus with 2 samples.

Results

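The antigen receptor loci of the mouse, where the gene segments of immunoglobulins and T cell receptors lie, were described by their open chromatin in the neonatal spleen. The members were all peaks of the longer of 2 deposited lists of each library whose midpoint lay in 1 of 6 windows of mm10, the mouse assembly GRCm38. The windows were Igh (immunoglobulin heavy chain, chr12:113200000-116020000), Igk (kappa light chain, chr6:67550000-70730000), Igl (lambda light chain, chr16:19020000-19270000), Tcra/d (T cell receptor alpha and delta, chr14:52420000-54230000), Tcrb (beta, chr6:40890000-41560000) and Tcrg (gamma, chr13:19170000-19360000). They held 432 of 169046 peaks, 173 in replicate 1 and 259 in replicate 2. Overlapping peaks of the libraries (at least 1 bp) were merged into 302 of 105691 regions, and 127 of the 302 had a peak of both libraries and are called shared. A further 44 regions had a peak in replicate 1 only and 131 in replicate 2 only.

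Accessible DNA was mapped by DNase-seq, which reads out where DNase I has cut, on spleen tissue of male B6CASTF1/J mice aged 4 days, hybrids of the C57BL/6J and CAST/EiJ strains. The labels name 1 group with biological replicates 1 and 2, describe a different animal for each and give both the same donor entry. Peaks carry the authors' signal, whose scale is not stated, and footprints are short protected stretches within open chromatin. With 2 libraries and no contrast between conditions no test was made, and the number of reads behind a value is unknown.

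An antigen receptor gene is assembled in developing lymphocytes, when the RAG recombinase joins a variable (V), in some chains a diversity (D), and a joining (J) segment upstream of a constant gene. Each segment is flanked by a recombination signal sequence, a heptamer and a nonamer around a spacer. Enhancers near the constant genes direct transcription and recombination, and sites bound by CTCF, a factor that anchors chromatin loops, lie among the V segments and at the ends of the loci. In bulk tissue, fewer cells of a type and less accessibility per cell cannot be told apart.

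The sequences below are those on which the results turn, printed 5′ to 3′ from the reference genome (GRCm38, RefSeq), with capitals for bases inside footprints of both libraries. The first set holds enhancer regions and the strongest region of Igh. They are the strongest Igh region (chr12:113222121-113222320, minus strand), the intronic enhancers of Igh (chr12:113427430-113427635, minus strand) and Igk (chr6:70725721-70725900, plus strand), and the central 300 bases of the region at the Tcra enhancer (chr14:54227441-54227740, plus strand).
Igh strongest region: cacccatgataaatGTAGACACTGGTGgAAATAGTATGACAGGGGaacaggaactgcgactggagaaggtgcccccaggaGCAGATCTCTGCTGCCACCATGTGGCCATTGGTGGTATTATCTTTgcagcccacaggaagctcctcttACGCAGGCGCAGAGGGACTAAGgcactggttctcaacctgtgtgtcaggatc
Igh intronic enhancer: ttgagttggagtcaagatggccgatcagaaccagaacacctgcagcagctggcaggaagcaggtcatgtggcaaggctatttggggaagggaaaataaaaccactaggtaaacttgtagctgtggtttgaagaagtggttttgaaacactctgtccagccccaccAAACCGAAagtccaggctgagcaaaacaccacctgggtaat
Igk intronic enhancer: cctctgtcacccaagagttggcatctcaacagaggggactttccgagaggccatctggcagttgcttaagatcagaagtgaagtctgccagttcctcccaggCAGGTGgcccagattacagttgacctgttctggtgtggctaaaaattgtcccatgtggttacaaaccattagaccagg
Tcra enhancer: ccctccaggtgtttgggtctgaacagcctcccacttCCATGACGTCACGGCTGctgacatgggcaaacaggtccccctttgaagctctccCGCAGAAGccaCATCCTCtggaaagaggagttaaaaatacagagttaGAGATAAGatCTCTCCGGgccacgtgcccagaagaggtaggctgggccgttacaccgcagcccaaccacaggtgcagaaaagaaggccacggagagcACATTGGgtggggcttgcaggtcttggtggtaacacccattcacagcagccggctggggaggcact
The strongest Igh region had 97 of its 200 bases in footprints of both libraries, against 8 of 206 in the Igh intronic enhancer and 6 of 180 in the Igk intronic enhancer. Their signals differed as well, with 6.04 and 7.97, 0.935 and 1.03, and 0.790 and 0.519. How far footprint calls follow signal was not tested. In the Tcra enhancer a cyclic AMP response element (TGACGTCA, bases 40 to 47) and a GATA motif (AGATAA, bases 139 to 144) lay wholly in such footprints, whereas a RUNX motif (TGTGGT, on the opposite strand at bases 202 to 207) lay outside them. In the Igk intronic enhancer an E-box (CAGGTG, bases 103 to 108) lay in a footprint of both, and a kappa B motif (GGGACTTTC, bases 35 to 43) lay outside. A match is a description of letters and not a measured binding site.

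The second set holds regions at Igh V segments, all on the minus strand and read in the direction of the segment: Ighv11-1 (chr12:113981721-113981900), the strongest, and Ighv5-2 (chr12:113578341-113578521), Ighv2-6 (chr12:113716521-113716680) and Ighv1-65 (chr12:115533241-115533400), which match the CTCF pattern.
Ighv11-1: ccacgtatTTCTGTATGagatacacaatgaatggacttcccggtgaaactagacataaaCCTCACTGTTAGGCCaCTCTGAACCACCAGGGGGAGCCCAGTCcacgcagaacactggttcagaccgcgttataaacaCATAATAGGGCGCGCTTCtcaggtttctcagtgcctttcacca
Ighv5-2: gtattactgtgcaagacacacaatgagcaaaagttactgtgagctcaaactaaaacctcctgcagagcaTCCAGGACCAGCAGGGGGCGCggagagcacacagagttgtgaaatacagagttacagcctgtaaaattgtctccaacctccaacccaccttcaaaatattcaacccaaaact
Ighv2-6: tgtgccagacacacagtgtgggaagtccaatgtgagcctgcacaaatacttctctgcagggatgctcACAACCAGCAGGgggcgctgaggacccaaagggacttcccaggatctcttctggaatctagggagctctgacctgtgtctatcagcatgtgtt
Ighv1-65: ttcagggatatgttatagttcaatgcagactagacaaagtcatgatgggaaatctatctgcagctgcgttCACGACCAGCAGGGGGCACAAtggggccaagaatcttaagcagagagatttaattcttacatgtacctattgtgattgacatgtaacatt
The CTCF match took bases 77 to 88 in Ighv5-2, 72 to 83 in Ighv2-6 and 76 to 87 in Ighv1-65. All 12 of its bases lay in footprints of both libraries in Ighv5-2 and Ighv1-65, and 8 of 12 did in Ighv2-6. The Ighv2-6 region also held the recombination heptamer CACAGTG at bases 12 to 18, outside those footprints.

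The third set holds Igk V promoters, on the plus strand, that carry the octamer ATTTGCAT, the promoter motif of immunoglobulin genes. They belong to Igkv2-137 (chr6:67555441-67555680), Igkv2-109 (chr6:68302281-68302440) and Igkv10-95 (chr6:68680161-68680320).
Igkv2-137: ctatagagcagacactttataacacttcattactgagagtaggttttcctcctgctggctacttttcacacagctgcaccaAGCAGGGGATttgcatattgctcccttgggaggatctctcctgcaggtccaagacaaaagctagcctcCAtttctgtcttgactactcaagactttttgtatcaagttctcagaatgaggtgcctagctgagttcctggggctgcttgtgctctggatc
Igkv2-109: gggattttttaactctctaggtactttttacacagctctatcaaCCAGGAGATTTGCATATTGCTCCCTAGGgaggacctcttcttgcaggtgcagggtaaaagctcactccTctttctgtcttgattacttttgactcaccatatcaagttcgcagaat
Igkv10-95: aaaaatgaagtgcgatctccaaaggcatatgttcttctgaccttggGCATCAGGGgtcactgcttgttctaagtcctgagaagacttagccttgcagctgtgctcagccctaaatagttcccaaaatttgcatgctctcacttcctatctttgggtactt
The octamer took bases 52 to 59 in Igkv2-109, with 8 of 8 bases in footprints of both libraries. It took bases 90 to 97 in Igkv2-137, with 2 of 8, and bases 126 to 133 in Igkv10-95, with 0 of 8.

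The last set holds the strongest regions of Tcrb and Tcrg, on the plus strand, which lie before Trbv12-1 (chr6:41112981-41113160), Trbv12-2 (chr6:41118301-41118460) and Tcrg-V7 (chr13:19177721-19177900).
Before Trbv12-1: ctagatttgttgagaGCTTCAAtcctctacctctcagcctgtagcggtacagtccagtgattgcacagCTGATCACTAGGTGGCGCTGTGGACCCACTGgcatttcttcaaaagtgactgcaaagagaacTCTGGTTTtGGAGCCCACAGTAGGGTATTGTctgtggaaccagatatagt
Before Trbv12-2: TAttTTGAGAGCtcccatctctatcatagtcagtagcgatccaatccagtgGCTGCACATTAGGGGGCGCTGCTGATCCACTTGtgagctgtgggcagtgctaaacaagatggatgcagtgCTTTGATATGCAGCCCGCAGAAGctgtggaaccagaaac
Before Tcrg-V7: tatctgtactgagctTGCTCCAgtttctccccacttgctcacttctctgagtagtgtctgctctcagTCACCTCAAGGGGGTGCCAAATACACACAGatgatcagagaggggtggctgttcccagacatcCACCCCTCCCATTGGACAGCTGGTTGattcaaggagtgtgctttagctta
The regions before Trbv12-1 and Trbv12-2 each hold the short core of the CTCF motif (AGNNGGC, with A or G and then G or T at the open places), at bases 78 to 84 and 62 to 68, wholly inside footprints of both libraries. This core was searched after these sequences were seen, and it occurs in 36.6% of all shared regions.

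Chromatin in the loci was mostly weakly open. The median peak signal was 0.392 in replicate 1 and 0.294 in replicate 2, against 0.796 and 0.650 over all peaks. Shared regions numbered 14.2 per Mb in the 6 loci and 22.2 per Mb in the genome. Ranked by the lower of their 2 signals among all 60632 shared regions, those of the loci had a median percentile of 13.9, and 0 of 127 reached the top 10% of the genome. The footprint share was near the background, with 88 of the 127 shared regions holding a footprint found in both libraries, beside 77.7% of all shared regions. Of all 31-base words in the loci, 43.0% are found elsewhere in the genome, from 28.9% in Tcrb to 54.8% in Tcra/d. How reads with several matches were placed is unknown, and the densities take no account of it.

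**Figure D1:**
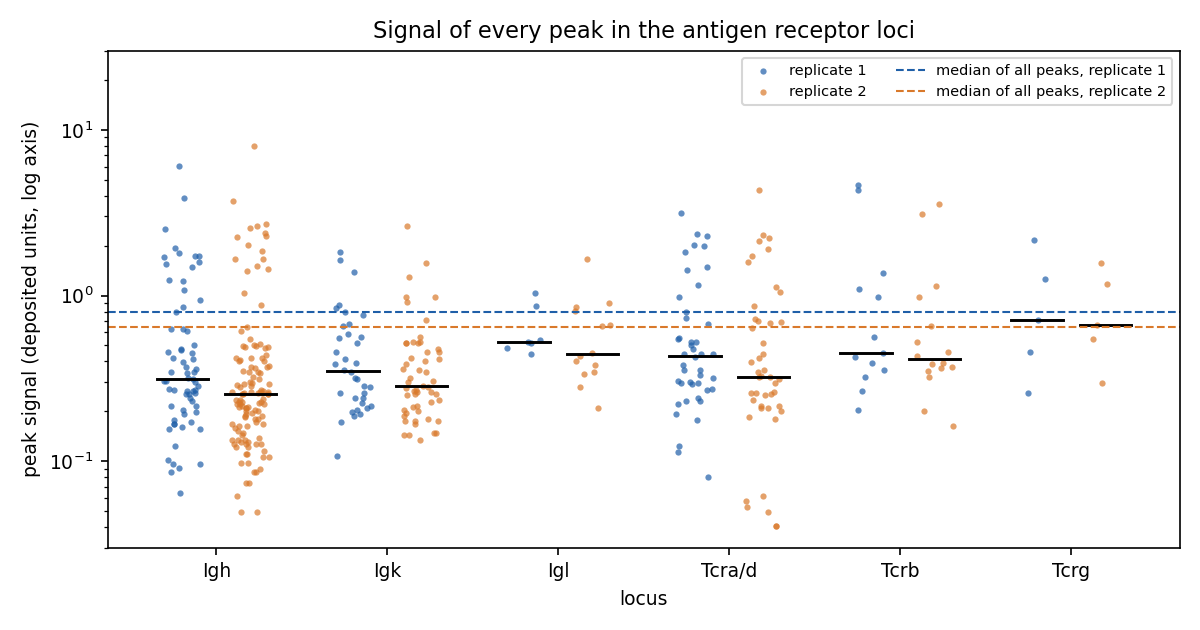
Deposited signal of each peak (log axis) in each locus, 1 point per peak, blue for replicate 1 and orange for replicate 2. Short bars are locus medians and dashed lines the medians of all peaks, 0.796 and 0.650. All locus medians in Igh, Igk, Igl, Tcra/d and Tcrb lie below these lines.

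The loci differed in the number of shared regions per Mb of their whole length, repeated sequence included. Igh held 50 shared regions (17.7 per Mb), Igk 26 (8.18 per Mb) and Igl 7 (28.0 per Mb). Tcra/d held 30 (16.6 per Mb), Tcrb 10 (14.9 per Mb) and Tcrg 4 (21.1 per Mb). The stricter peak lists left 69 of the 127. Igk was the sparsest per Mb and Igl, a short locus, the densest, but with only peaks at or above the median signal of their library Igl had 2 in 0.25 Mb and Tcrg 2 in 0.19 Mb. The median signal of shared regions was 0.417 and 0.464 in Igh, 0.403 and 0.435 in Igk, and 0.527 and 0.809 in Igl. It was 0.511 and 0.574 in Tcra/d and 0.772 and 0.558 in Tcrb. Igk had the lowest median in both libraries, and Tcrg had medians of 0.984 and 0.920 over only 4 regions.

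In Igh and Igk the strongest regions stood towards the end of the locus that holds the constant genes, as the mirrored maps show, with Ighv11-1 as the exception among the 3 strongest of Igh. Downstream of Igha, the last constant gene of Igh, 11 shared regions lay 26.4 to 38.7 kb past the gene. All lay in the window set for the 3′ regulatory region, which drives heavy chain expression and class switching. These regions need not belong to that element, because the window was set by distance from Igha alone. The strongest of them had signals of 6.04 and 7.97, the highest of all members in each library, and its neighbour had 3.88 and 3.74. A region of replicate 2 alone (0.482) lay closer, 13.3 kb past Igha. Of these regions 2 matched the CTCF pattern, both on the plus strand of the genome, whereas all 14 matches at Igh regions nearest a V segment were on the minus strand. The 2 groups of matches thus point in opposite directions along the chromosome.

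**Figure D2:**
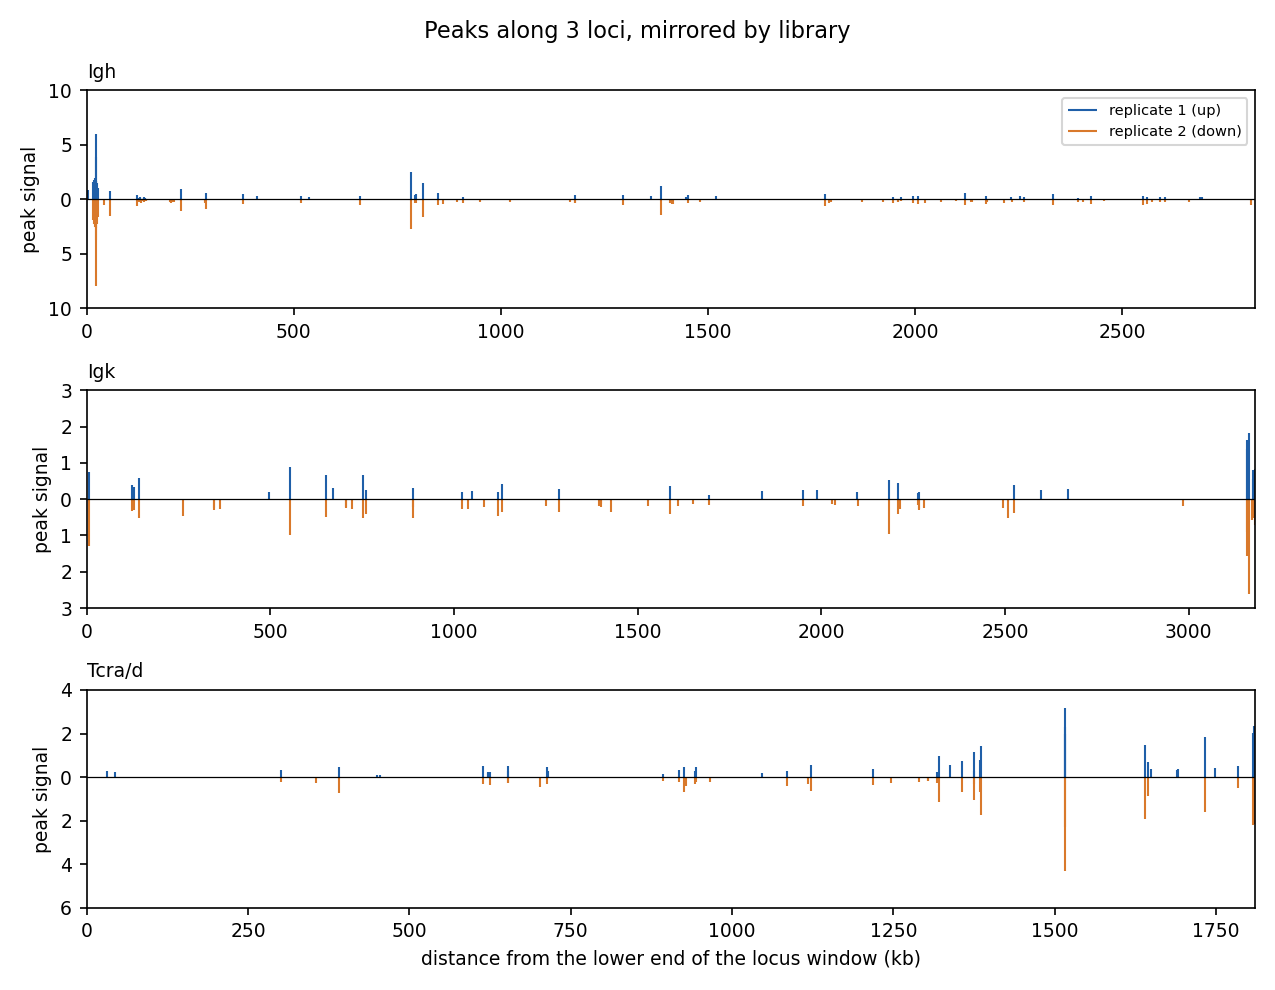
Peak signal (deposited units) along Igh, Igk and Tcra/d against distance in kb from the lower end of each window, with replicate 1 upwards in blue and replicate 2 downwards in orange. The tallest Igh lines stand near the lower end, beyond Igha, with signals of 6.04 and 7.97, and the tallest Igk lines near the upper end, with 1.83 and 2.62.

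Of 19 windows set around known enhancers, promoters and boundary elements, 10 held a shared region, 8 of them with a region among the members. The windows differed in length, with 2.51 kb at the Igk intronic enhancer and 44.9 kb in the IGCR1 interval. The Tcrb D1 promoter had the shortest and the Igh 3′ regulatory region the longest. No share over windows of like length elsewhere was counted. How far the presence of a region follows window length was therefore not tested. The windows were set from annotated segments, so a region in one need not be the element it is named for. The Igh intronic enhancer Emu, which acts in recombination and in Ighm transcription, had signals of 0.935 and 1.03 (mean 0.983 ± 0.0669 SD, n = 2), and the libraries were close. The window set for IGCR1, a CTCF-bound element between the V and D segments, held no peak in either library, but it began at the outermost annotated D segment (Gm16968), 45.9 kb beyond Ighd1-1, and so missed the stretch next to Ighd1-1 where IGCR1 is known to lie. In that stretch a shared region 5.59 kb from Ighd1-1 had signals of 0.629 and 0.871 (mean 0.750 ± 0.171 SD, n = 2), and replicate 2 alone had peaks 3.04 and 3.52 kb from it (0.323 and 0.253), the first with the short CTCF core. With a window from Ighd1-1, chosen after these values were seen, 11 of the 19 windows held a shared region. The Igk intronic enhancer had signals of 0.790 and 0.519 (mean 0.655 ± 0.192 SD, n = 2), higher in replicate 1. The interval with Cer and Sis, CTCF-bound elements between the Igk V and J segments, had 3 shared regions, the strongest with 1.83 and 2.62.

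At Igl, 1 shared region followed Iglc4 (0.516 and 0.850) and 1 followed Iglc1 (0.527 and 0.809), both higher in replicate 2 and neither with a footprint of both libraries. They lay 15.6 kb past Iglc4 and 8.66 kb past Iglc1. Replicate 2 alone also had a peak 15.1 kb past Iglc4 (0.282) and one 34.3 kb past Iglc1 (0.433). Which of these is an enhancer was not tested. The 2 strongest Igl regions lay elsewhere, 48.1 and 48.5 kb from Iglc4, the nearest segment, with signals of 1.03 and 1.67 and of 0.866 and 0.903. The first of these matched the CTCF pattern.

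The T cell receptor loci showed an uneven set of elements. The window of the Tcra enhancer, which drives Tcra transcription and V-J joining, had 2 shared regions with signals of 2.02 and 2.21 and of 2.35 and 2.13, so that the libraries lay close together. The TEA promoter, which starts transcription through the first Traj segments, had 1.84 and 1.60 (mean 1.72 ± 0.167 SD, n = 2). The window of the Tcrb enhancer had peaks of replicate 2 only (0.523 at the highest), and the Tcrb D1 promoter, the Tcrd enhancer and the 4 windows after the Tcrg constant genes had none in either library. At this unknown depth a missing peak does not show closed chromatin.

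**Figure D3:**
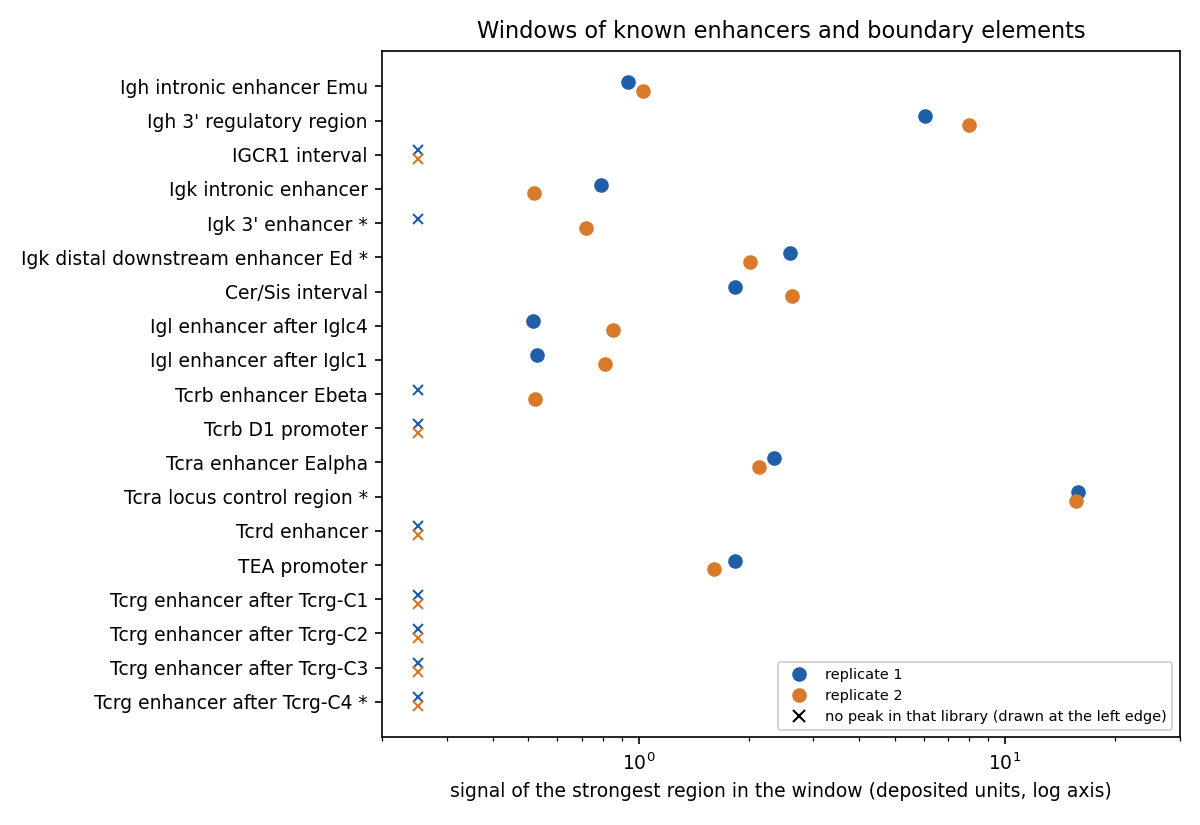
Signal of the strongest region in each of 19 element windows (log axis), blue for replicate 1 and orange for replicate 2, with crosses at the left edge where a library had no peak. Windows with a star reach outside the 6 loci, and the IGCR1 window leaves out the stretch next to Ighd1-1. The window of the Igh 3′ regulatory region (6.04 and 7.97) is highest among windows inside the loci.

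Most of the other regions among the 3 strongest of each locus stood between segments. In Igk the 2 regions after the strongest, both in the Cer and Sis interval, lay 5.20 and 5.59 kb from Igkv3-1, the V segment nearest the J segments, with signals of 1.63 and 1.58 and of 1.39 and 0.911. The third of Igl, 42.3 kb from Iglc4, had 0.538 and 0.654. In Tcrb the region 1.76 kb from Trbv1 had 1.09 and 1.14 and matched the CTCF pattern. In Tcrg a region overlapping Tcrg-V7 had 1.26 and 1.17, and one 6.18 kb from Tcrg-V3 had 0.710 and 0.666. All of these held a footprint of both libraries, unlike the regions in the 2 Igl enhancer windows.

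The strongest Tcra/d region, with signals of 3.17 and 4.33 and 6 and 8 footprints, lay 8.41 kb from Trav22 in an antisense transcript (Gm43647) rather than at a known element. Another in the same transcript, 7.87 kb from Trav22, had 2.28 and 2.31. These regions were largely repeated sequence, with 89.2% and 61.9% of their 31-base words found elsewhere in the genome.

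V segments, the parts that each receptor chooses among, were open at few members. A shared region within 1 kb of the annotated start was found for 49 of 553 V segments (8.86%), beside 61.5% of all protein-coding genes. Replicate 1 alone gave 59, replicate 2 alone 78 and the stricter peak lists 19. The share was 21 of 196 in Igh, 10 of 176 in Igk, 0 of 3 in Igl, 13 of 136 in Tcra/d, 4 of 35 in Tcrb and 1 of 7 in Tcrg. Among V segments annotated as genes 42 of 364 were open, and among pseudogenes 7 of 189. Shares varied with the repeated sequence in the window without a steady order, being 7.62% of segments with 0 to 25% repeated 31-base words, 9.40% with 25 to 50%, 12.4% with 50 to 75% and 6.58% with 75 to 100%.

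The most open V segments differed in strength by locus. Ighv11-1, of a family known from B-1 cells, had signals of 2.52 and 2.71 (mean 2.62 ± 0.133 SD, n = 2), the pseudogene Ighv4-2 had 1.55 and 1.66, and Ighv11-2 had 0.613 and 0.544. In Igk the highest by the lower of the 2 signals were Igkv2-137 (0.758 and 1.29), Igkv2-109 (0.672 and 0.515) and Igkv6-32 (0.392 and 0.384). Igkv15-103 (0.312 and 0.527) was above Igkv6-32 by the mean, and above Igkv2-109 in replicate 2. The strongest V regions of all were at Tcrb, before Trbv12-2 (4.65 and 3.59) and Trbv12-1 (4.33 and 3.12), and both were higher in replicate 1.

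In Tcra/d, Trav17 had 1.42 and 1.72, B230359F08Rik, annotated as a V segment, 1.15 and 1.05, and Trav3-4 0.731 and 0.699. Tcrg-V7 was the only open V segment of Tcrg, with 2.17 and 1.58 at its strongest region. Only shared regions were counted, so the presence of each of these in both libraries follows from the selection. Among the V segments named up to here, the order was the same in both libraries for Tcra/d and Tcrb but not for Igk. A further Tcra/d segment, Trav10d (0.478 and 0.723), was below Trav3-4 in replicate 1 and above it in replicate 2.

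The sequence motifs in the V regions differed between loci. For this, 200 bases centred on each shared region within 1 kb of a V segment (53 regions, counted by distance to the segment) were searched on both strands. The CTCF pattern was found in 10 of 21 regions of Igh, 0 of 10 of Igk, 3 of 16 of Tcra/d and 0 of 4 of Tcrb, beside 10.7% of all shared regions. The short core of the motif was found in 10 of 21, 3 of 10, 8 of 16 and 2 of 4, beside 36.6%. By the core, Igh did not stand apart from Tcra/d and Tcrb. The octamer was found in 7 of 10 regions of Igk and in 0 of 21 of Igh and 0 of 16 of Tcra/d, beside 1.02%. These counts hold for the bases searched, which need not include the V promoter. In Igh the 10 CTCF matches lay 757.5 to 834.5 bases before the start or past the segment end. The count of 0 of 21 thus does not show that Igh V promoters lack the octamer. The heptamer CACAGTG was found in 9 of 21 Igh regions, beside 5.60%. A heptamer flanks each V segment as part of its recombination signal, so regions chosen at V segments are likely to hold one. No share over V segments without a region was counted for any motif. The RUNX motif TGTGGT was in 9 of 16 regions of Tcra/d and 6 of 21 of Igh, beside 14.7%. It was in 2 of 4 of Tcrb and 0 of 10 of Igk. RUNX matches were also in 23 of the 74 shared regions away from V segments. The E-box CAGGTG was found in 10 of the 53 regions, near its background of 17.3%, and in 26 of the 74 shared regions away from V segments. V segments of a family are near copies, so such regions share sequence and are not independent.

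Within a locus, matches recurred at like places relative to the V segments. In Igh, 4 CTCF matches began 59 to 61 bases past the annotated end of the segment (Ighv5-2, Ighv2-6, Ighv5-17 and Ighv4-2), and all 4 touched a footprint of both libraries. The other 6 lay 757.5 to 834.5 bases before the start, all at Ighv1 segments (Ighv1-52, Ighv1-62-3, Ighv1-65, Ighv1-69, Ighv1-72 and Ighv1-74), and 2 of them touched such a footprint. All 10 pointed in the direction of the segment. In Igk, 6 octamers lay 42.5 to 96.5 bases before the start, on the strand of the segment, and the seventh, at Igkv2-137, lay inside the annotated segment. The heptamers, 9 in Igh, 2 in Igk and 3 in Tcra/d, each began 1 base past the end of the segment. The annotated V segment stops where the recombination signal begins, so this place follows from the annotation.

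**Figure D4:**
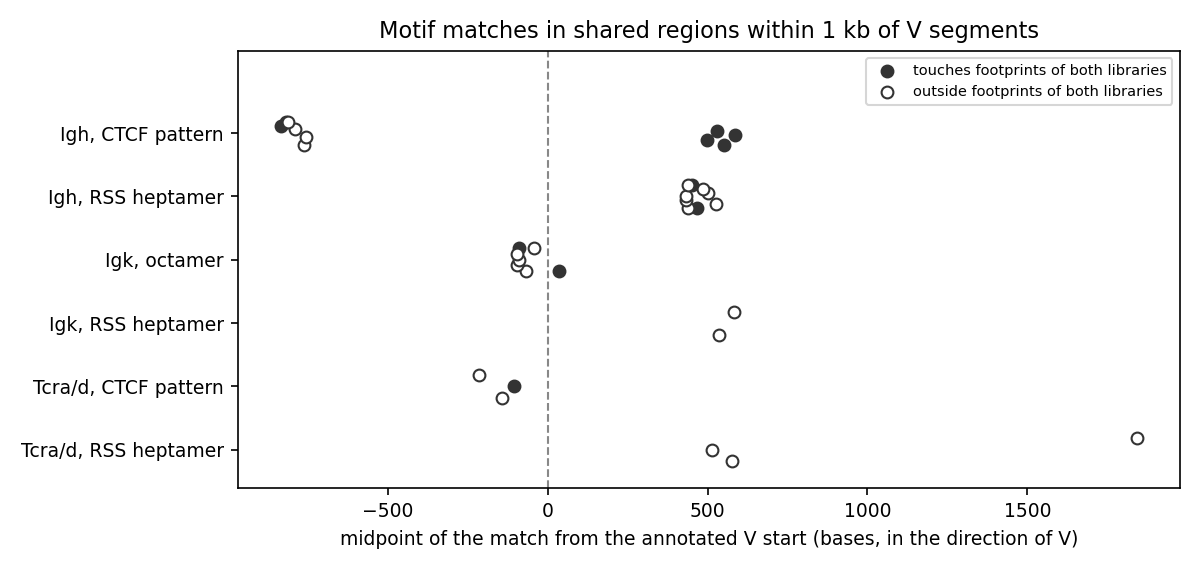
Midpoint of each motif match in bases from the annotated V start, in the direction of the segment, for shared regions within 1 kb of V segments, filled where the match touches footprints of both libraries. Igh CTCF matches form 2 groups, 757.5 to 834.5 bases before the start and past the segment end.

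Shared regions within 1 kb of D, J and constant segments were few. Windows of neighbouring segments overlap, so the segments are not independent, and no share over like short features was counted. None of the 22 Igh D segments had a peak of either library within 1 kb. Of the J segments, 1 of 4 in Igh (Ighj4), 0 of 5 in Igk, 2 of 5 in Igl, 2 of 62 in Tcra/d (Traj14 and Traj15) and 7 of 14 in Tcrb had a shared region there, and the 7 in Tcrb were all the Trbj2 segments. These lie close together, and they and Trbd2, which precedes them, rested on only 2 shared regions (0.565 and 0.392, and 0.425 and 0.458), none of whose 4 peaks touched the stricter lists. Trbd1 had no shared region within 1 kb. The shared region near Ighj4 is the one in the Emu window given above. Likewise the shared region near the constant gene Igkc is the one in the Igk intronic enhancer window. Among constant genes, Igha (0.796 and 1.50), Ighg1 (0.231 and 0.168 in the shared region highest in replicate 1, and up to 0.294 in a region of replicate 2 alone), Igkc (0.790 and 0.519) and Iglc2 (0.441 and 0.347, the latter in a region of replicate 2 alone) had signal within 1 kb and a shared region. Ighm, which encodes the constant part of IgM, had no peak of either library there, nor had Trac, Trdc, Trbc1, Trbc2 and Tcrg-C1 to Tcrg-C4. Genes of other families in the windows were without a shared region: 0 of 2 in Igh, 0 of 3 in Tcra/d, all olfactory receptors, and 0 of 14 in Tcrb, trypsinogen genes among them. Over all protein-coding genes, 61.5% had a shared region within 1 kb of a start site.

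The libraries differed in how many weak peaks they had in the immunoglobulin loci. Replicate 2 had 125 peaks in Igh against 68 in replicate 1 (1.84 times), 54 against 36 in Igk (1.50 times) and 14 against 7 in Igl, whereas the ratio was 1.02 in Tcra/d, 1.23 in Tcrb and 1.10 over the genome. Peaks of replicate 1 overlapped one of replicate 2 for 129 of 173, beside 77.3% of all, and peaks of replicate 2 overlapped one of replicate 1 for 128 of 259, beside 69.7%. In Igh the shares were 76.5% and 40.8%.

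A stretch from the 3′ end of Ighg1 to the 3′ end of Ighg3 (chr12:113325240-113356223, chosen after its values were seen) held 15 peaks of replicate 1 and 39 of replicate 2, with median signals of 0.156 and 0.127. It had 7 shared regions, 6 of replicate 1 alone and 32 of replicate 2 alone. The interval holds Ighg1, a constant gene reached by class switching, and, upstream of it, its switch region, a run of short repeats. Outside it Igh had 53 and 86 peaks, of which 81.1% and 51.2% overlapped one of the other library.

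Signals at shared regions leaned towards replicate 2 most in Igl and Igh, and more in Tcra/d than in Igk. The log2 ratio of replicate 1 to replicate 2, centred on the median of all shared regions (0.16), had a median of -0.38 in Igh, -0.13 in Igk and -0.62 in Igl. It was -0.24 in Tcra/d, 0.18 in Tcrb and -0.07 in Tcrg. It was below 0, higher in replicate 2, in 40 of 50 regions in Igh, 17 of 26 in Igk, 6 of 7 in Igl, 22 of 30 in Tcra/d, 4 of 10 in Tcrb and 3 of 4 in Tcrg, and in 92 of the 127 in all; the centring sets the median of all shared regions to 0. The SD over regions was larger than the size of the median in Igh (0.40), Igk (0.49), Tcra/d (0.44), Tcrb (0.27) and Tcrg (0.29). In Igl the SD (0.40) was smaller than the size of the median. Without centring the median was 0.034 in Igk and 0.096 in Tcrg, so that the direction turned in these 2 loci.

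Promoters of marker genes of the lineages were measured in the same libraries. Medians here are of the centred log2 ratio, whereas sums are of the deposited signals without centring. Of 10 B cell genes, 8 had a shared region within 1 kb of a start site (61.5% of all protein-coding genes did), all 8 below 0 with a median of -0.54, and their summed signals were 19.0 in replicate 1 and 22.7 in replicate 2. Rag1 and Rag2 had no peak in either library. Of 10 T cell genes, 6 had one, with a median of -0.11 and sums of 15.1 and 12.1. Lck (10.6 and 7.52) set the direction of these sums, and the other 5 summed to 4.47 and 4.59. Cd3e and Cd4 had no peak in either. All 5 erythroid genes had one, with a median of 0.19 and sums of 36.9 and 29.2. Cd8a had a peak in replicate 2 only and Tcf7 in replicate 1 only. The part of these shifts between the libraries in the values of the receptor loci was not tested.

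**Figure D5:**
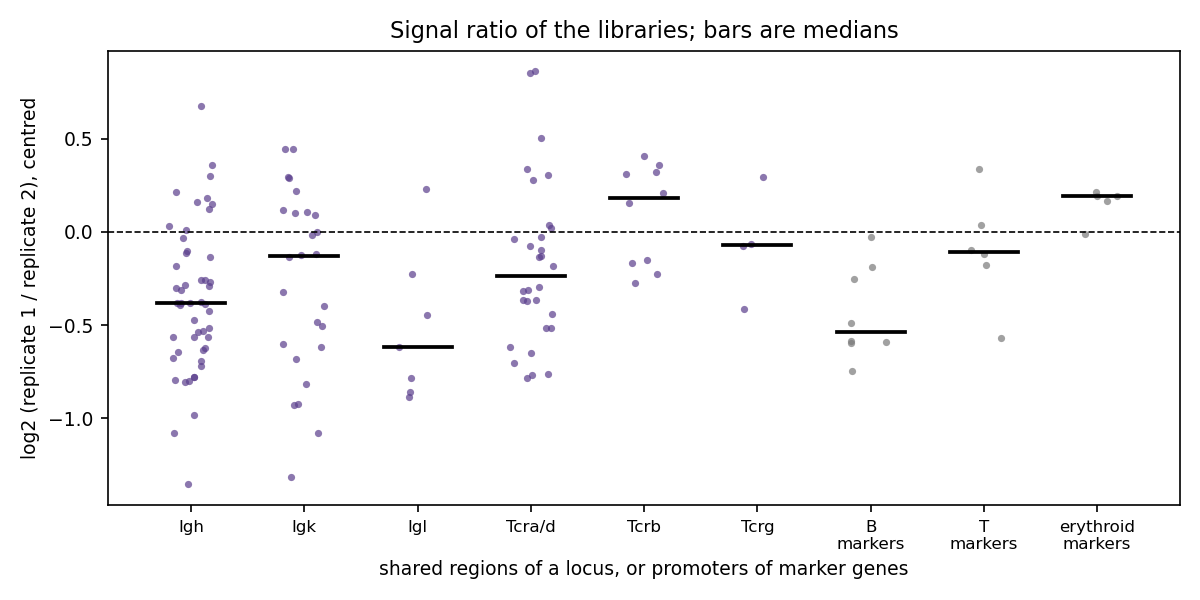
Centred log2 ratio of replicate 1 to replicate 2 for each shared region of a locus and for the promoters of the B, T and erythroid marker genes, with bars at the medians. Medians are -0.38 in Igh, -0.13 in Igk, -0.62 in Igl, -0.24 in Tcra/d and -0.54 for B markers, and 0.19 for erythroid markers.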

How the data were processed

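The sources were deposited lists for 2 DNase-seq libraries of 1 group. For each, the authors deposited 2 peak lists with a signal per peak, footprints with an FDR (q-value) of 0.01 in every line, and positions with an FDR (q-value) under 0.05, on mm10 per the labels. The aligner, callers and versions, and the placing of reads with CAST/EiJ alleles or several matches, were not given in the sources used here. Read totals were not used; depth, and with it the counting error of weak peaks, is unknown.

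Overlapping peaks of the longer lists (at least 1 bp) were merged, with the highest peak as the signal of a library. Annotation was GENCODE M21 on GRCm38, with every transcript start of a gene used. Repeats were counted as 31-base words found elsewhere in the genome. Motifs were searched as exact patterns, CTCF by its 12-base core consensus, in 200 bases. Members, lists, element windows and sequences were chosen with earlier results of these data known. Named were each element, the strongest regions and V segments of each locus and the constant genes, and exceptions are marked as chosen with values in view. The steps were tested on simulated data. Tools were bedtools 2.31.1, pysam 0.24.0, matplotlib 3.10.9, pandas 2.3.3, Python 3.11.15, scipy 1.17.1 and numpy 2.4.6. Alternatives were the stricter list, reciprocal overlap of 50%, each library alone, peaks at or above the median signal, other windows and membership, and no centring, with a wider IGCR1 window added after the data were seen.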

Additional observations from a re-analysis of the deposited data

How the results depend on the processing

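The counts above depend on the weak peaks. With the stricter list shared regions fell to 30 in Igh, 10 in Igk, 4 in Igl, 17 in Tcra/d, 5 in Tcrb and 69 in all, and open V segments to 6 in Igh, 3 in Igk, 7 in Tcra/d, 2 in Tcrb and 19 in all. With only peaks at or above the median signal of their library, shared regions were 16 in Igh, 5 in Igk, 2 in Igl, 9 in Tcra/d, 5 in Tcrb, 2 in Tcrg and 39 in all, and open V segments 2 in Igh, 0 in Igk, 2 in Tcra/d, 2 in Tcrb and 7 in all. Each library alone, replicate 1 and then replicate 2, gave 68 and 125 peaks in Igh, 36 and 54 in Igk, 7 and 14 in Igl, 44 and 45 in Tcra/d, 13 and 16 in Tcrb, 5 and 5 in Tcrg and 173 and 259 in all. It gave 25 and 33 open V segments in Igh, 11 and 20 in Igk, 0 and 2 in Igl, 16 and 17 in Tcra/d, 6 and 5 in Tcrb, 1 and 1 in Tcrg and 59 and 78 in all. A window of 2500 bp gave 7 open V segments in Tcrb and 2 in Tcrg. Without centring the median log2 ratio turned to 0.034 in Igk and 0.096 in Tcrg. Reciprocal overlap and membership by any overlap left each count within 1.5 times. No paired analysis was possible because there is 1 group. The cause of these shifts was not tested.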

Other observations

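Just outside the windows, the Igk 3′ enhancer had a peak in replicate 2 only (0.719). The distal downstream enhancer Ed of Igk had 2 shared regions, the stronger with signals of 2.60 and 2.01 (mean 2.30 ± 0.414 SD, n = 2). Between the Tcra enhancer and Dad1, a housekeeping gene next to the Tcra locus, lay 6 shared regions. The strongest, next to the start of Dad1, had signals of 15.8 and 15.6, and the next had 4.37 and 4.43. All peaks of replicate 1 but 1 in the stretch from Ighg1 to Ighg3 (14 of 15) and 35 of 39 of replicate 2 touched a peak of the stricter list, although their median signals ranked at the 2.01 and 4.72 percentiles of their library.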
